A study of Homo sapiens with 4 samples.

Results

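The 10 genes described here encode 6 receptor tyrosine kinases and the secreted or membrane-anchored partners that switch them on: MET and MST1R with the ligand HGF, RET with its co-receptor GFRA1 and the ligand GDNF, and the TAM receptors TYRO3, AXL and MERTK with the ligand GAS6. They were found by symbol among the 57820 Ensembl gene identifiers of the count files, and all 10 had a row. The data comprised 4 bulk RNA libraries, 2 from parental A549, an established human lung adenocarcinoma line of epithelial morphology, and 2 from TD, which are A549 cells of mesenchymal-like morphology given the cytokine TGF-β at 2 ng/ml every 3 days. Both lines grew in DMEM with 10% fetal bovine serum and gentamycin, with no TGF-β named for the parental cells. Whether TD is 1 clone, and whether replicate libraries are separate cultures, is not stated in the labels. The p-values therefore reflect library-to-library spread alone, and that spread may be technical.

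Receptor tyrosine kinases carry a ligand-binding part outside the cell and a kinase inside it, and ligand-driven pairing starts signalling through adaptors to the ERK and PI3 kinase routes. HGF is secreted as an inactive precursor, mostly by stromal cells, and is cut by serine proteases before it activates MET, while MST1R, also called RON, is the receptor of the related factor MST1. RET does not bind its ligands alone: GDNF first binds GFRA1, a protein anchored to the membrane by a lipid, and the pair engages RET. The TAM receptors bind GAS6 and protein S, which need vitamin K-dependent carboxylation. In lung adenocarcinoma, MET and RET are known as drivers when altered, and AXL is known for its association with mesenchymal, drug-tolerant cells.

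Gene counts came to 26729278 to 44133836 per library, and levels below are CPM, which relate each count to its library total after the TMM correction for composition. A library with 0 counts of a gene allows up to 3, equal to 0.0738 to 0.108 CPM depending on the library, and such limits and intervals cover counting error only. The labels held for marker genes: CDH1, the epithelial cadherin, was at 189.9 ± 1.86 CPM in A549 and 2.95 ± 0.134 CPM in TD (SD, n = 2 libraries each), and CDH2, the mesenchymal cadherin, at 0.485 ± 0.0765 and 187 ± 13.4 CPM. Of the listed alveolar lung genes, NKX2-1, SFTPA1, SFTPA2, SFTPB and SFTPC had at most 6 counts in any library and NAPSA had 61 and 64 in A549 and 35 and 31 in TD, while the sum over 11 lung epithelial markers was 15320 to 16120 CPM in A549 and 1730 to 2071 CPM in TD, most of it the keratins KRT8 and KRT18. TD replicate 2 stood apart in its pseudogenes, which took 0.373% of its counts against 1.11% to 1.15% in the other libraries, and results are given without it where that changes them. Summed levels of 11 fibroblast markers were 5.56 to 5.57 CPM in A549 and 262 to 297 CPM in TD, almost all of it COL1A1. COL3A1 was also called higher, from 3 and 1 counts to 19 and 21, and LUM lower, from 38 and 42 to 5 and 6. FAP went from 0 and 1 counts to 7 and 10, and COL1A2 from 0 to 1 and 10. PDGFRA went from 0 and 1 counts to 4 and 3. DCN had 1 count in each A549 library and 0 in TD, and POSTN had 0 throughout. PDGFRB, THY1 and TCF21 had at most 7 counts in any library. Sums over 9 leukocyte markers were 5.02 to 5.39 CPM in A549 and 8.55 to 8.90 CPM in TD, and without CSF1R, described below, the sum was lower in both TD libraries than in A549. Of this list CD14 was called lower, CD68 and ITGAM were not called and CD3E had 0 counts throughout. CD79A had 1 and 2 counts in A549 and 3 and 11 in TD, and PTPRC 0 and 2 against 4 and 3. LYZ and FCER1G had at most 4 counts in any library, and none of these scarce genes was tested. Sums over 7 endothelial markers were at most 0.467 CPM in A549 and 0.827 CPM in TD. Of these, KDR had 0 counts in A549 and 13 and 9 in TD, and TEK 0 against 6 and 16. CLDN5 went from 8 and 4 counts to 1 and 4, the other endothelial markers had at most 3 in any library, and none was tested. The part of these markers in the results was not tested. In bulk RNA, fewer expressing cells and less RNA per cell cannot be told apart.

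All 10 members passed the filter on low counts, and all 10 were called at an adjusted p below 0.05 by edgeR's quasi-likelihood test (Benjamini-Hochberg over 17785 tested genes), 6 higher and 4 lower in TD. Across all tested genes 43.0% were called, 21.6% higher and 21.4% lower. Among the 13208 tested protein-coding genes, the type of all 10 members, 50.6% were called. The groups did not overlap in CPM for any of the 10, a state that 74.0% of tested genes shared. MET rose while MST1R and HGF fell, TYRO3 and GAS6 rose while AXL and MERTK fell, and RET, GFRA1 and GDNF all rose. Without A549 replicate 1, 4 members were called higher and 3 lower, and without A549 replicate 2, 5 and 3; MET (adjusted p = 0.0605 without A549 replicate 1), GDNF (0.0556 and 0.0558) and HGF (0.0662 and 0.0761) lost their calls, with folds in the same direction. Without either TD library the calls were 6 and 4.

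**Figure D1:**
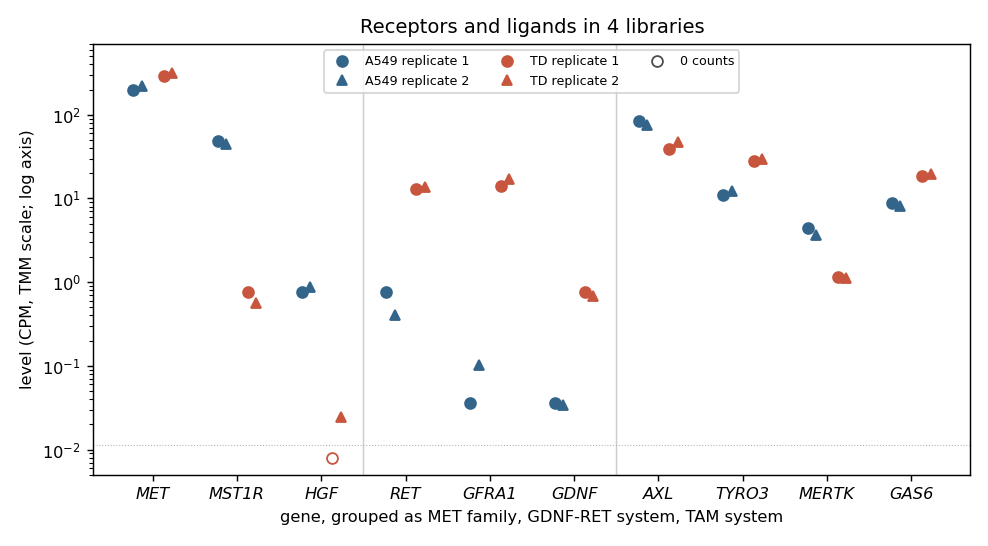
Level of each member in each library, in CPM on a log axis, with A549 in blue and TD in red; the open symbol marks 0 counts and is drawn below the axis values. RET, GFRA1 and GDNF rise from under 1 CPM, MST1R and HGF drop, and MET, AXL, TYRO3, MERTK and GAS6 shift by smaller amounts.

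The 3 largest rises among the 10 members were those of the GDNF receptor system. GFRA1 (ENSG00000151892.10), the GDNF-binding co-receptor, was at 0.0359 and 0.101 CPM in the A549 libraries and at 14.3 and 16.8 CPM in TD. These levels rest on 4 counts over both A549 libraries and 1099 over both TD libraries, a 227-fold difference with a 95% exact counting interval of 88.3 to 834. The fitted log2 ratio was 7.73 (SE 0.33, edgeR adjusted p = 0.000121), and it was 7.17 without A549 replicate 1 and 8.59 without A549 replicate 2. GFRA1 thus moved from the range of single counts to 414 and 685 counts in the TD libraries.

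RET (ENSG00000165731.13), the signalling kinase of the complex, was at 0.754 and 0.404 CPM in A549 and at 12.9 and 13.5 CPM in TD. Both TD libraries lay far above both parental ones, with 373 and 550 counts against 21 and 12. The change was 22.8-fold on mean CPM, a log2 ratio of 4.51 (SE 0.30, edgeR adjusted p = 0.000476). It was 4.97 without A549 replicate 1 and 4.10 without A549 replicate 2, as the parental libraries differed from each other.

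GDNF (ENSG00000168621.10), the ligand, had 1 count in each A549 library and 22 and 28 counts in the TD libraries, which is 0.0359 and 0.0337 CPM against 0.758 and 0.689 CPM. The ratio of counts was 20.6-fold, with a 95% exact counting interval of 5.42 to 175 (edgeR adjusted p = 0.00415). GDNF was the scarcest of the 3 genes in TD. GDNF-AS1, a noncoding gene on the opposite strand, had 0 counts in A549 and 6 and 10 in TD, at least 4.40-fold higher with 3 counts over both A549 libraries in place of 0. Since the strand setting of the counting is not given, reads of this pair cannot be told apart.

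Since these 3 genes rose together, the 250 bases before their most upstream RefSeq start are shown (GRCh38.p14), and for RET also a start further downstream. The letters CACCTG, the core bound by ZEB and SNAIL repressors, were searched on both strands and are in capitals (CAGGTG where the match is on the other strand). Among the first starts, the RET and GDNF windows held 79.6% and 78.0% G and C with 33 and 26 CpG dinucleotides, and the GFRA1 window 43.2% with 5 CpG. Windows also differed within a gene: the second GFRA1 start had 64.4% with 23 CpG, the second RET start 58.0% with 6, and the third GDNF start 5 CpG. The counts per gene do not tell which start was used.
RET, first start, chr10:43076819-43077068, plus strand: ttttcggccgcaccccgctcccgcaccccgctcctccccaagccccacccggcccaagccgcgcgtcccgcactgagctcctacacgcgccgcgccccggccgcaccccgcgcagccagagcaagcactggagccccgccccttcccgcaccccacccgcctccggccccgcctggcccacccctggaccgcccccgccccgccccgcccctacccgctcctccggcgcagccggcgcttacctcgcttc
RET, second start, chr10:43104515-43104764, plus strand: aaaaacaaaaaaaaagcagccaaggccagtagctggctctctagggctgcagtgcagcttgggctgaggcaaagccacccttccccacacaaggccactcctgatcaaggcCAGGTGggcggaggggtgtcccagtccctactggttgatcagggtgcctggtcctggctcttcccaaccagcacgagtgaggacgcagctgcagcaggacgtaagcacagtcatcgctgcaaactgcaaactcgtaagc
GFRA1, first of 4 starts, chr10:116274706-116274955, minus strand: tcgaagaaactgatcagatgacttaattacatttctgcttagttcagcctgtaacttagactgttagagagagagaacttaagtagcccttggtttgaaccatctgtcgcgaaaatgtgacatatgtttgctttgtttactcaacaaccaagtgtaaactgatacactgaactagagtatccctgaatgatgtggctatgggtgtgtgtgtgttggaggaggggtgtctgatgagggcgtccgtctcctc
GDNF, first of 4 starts, chr5:37840042-37840291, minus strand: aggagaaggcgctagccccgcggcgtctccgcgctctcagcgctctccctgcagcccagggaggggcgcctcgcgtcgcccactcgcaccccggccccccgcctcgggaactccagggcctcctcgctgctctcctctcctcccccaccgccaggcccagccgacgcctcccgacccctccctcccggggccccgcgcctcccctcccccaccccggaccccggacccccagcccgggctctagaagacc
The second RET window held CACCTG once, ending 133 bases before the start, and none of the 4 GFRA1 and 4 GDNF windows held it. Of 35116 RefSeq windows of 250 bases, 17.5% held these letters, as did 4 of the 19 windows of the 10 members. Other motifs searched on both strands were TGANTCA, bound by AP-1, in 1 member window (TYRO3) and 6.57% of all windows, GGAATG, bound by TEAD factors, in 2 (HGF and the second AXL start) and 11.9%, and GTCTAGAC, bound by SMAD proteins, in 0 and 0.182%.

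Of 16 listed other ligands and co-receptors of the 3 systems, 9 were tested, and 2 were called higher and 4 lower. This was 66.7%, against 43.0% of all genes and 50.6% of protein-coding genes, with a median log2 ratio of -0.94 in the list. Among the alternative co-receptors, GFRA2, GFRA3 and GFRA4 had at most 3 counts in any library and 0 in TD, and GFRAL, the receptor of GDF15, had 0 counts in all 4 libraries, so none could be tested. NRTN and ARTN, ligands of GFRA2 and GFRA3, had 4 to 16 counts per library and were not tested either. PSPN, the ligand of GFRA4, was at 1.54 and 1.42 CPM in A549 and 1.10 and 1.57 CPM in TD, with overlapping groups (log2 ratio -0.14, SE 0.30, edgeR adjusted p = 0.735). GDF15, a stress-induced cytokine that signals through GFRAL and RET, fell from 808 and 768 counts to 37 and 52, or from 27.5 ± 2.22 to 1.28 ± 0.00259 CPM (log2 ratio -4.42, SE 0.12, edgeR adjusted p = 4.75e-05). NCAM1, an adhesion molecule that can bind GDNF with GFRA1, had 1 count in a single A549 library and 0 elsewhere. SDC3, a heparan sulfate proteoglycan that binds GDNF, was at 22.5 and 18.8 CPM in A549 and 27.9 and 30.6 CPM in TD (log2 ratio 0.50, SE 0.12, edgeR adjusted p = 0.0248). The SDC3 call was lost without A549 replicate 2 (adjusted p = 0.0805) and with the replicate number as a block (0.0728).

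The MET family split. MET (ENSG00000105976.10), the HGF receptor, was at 196 and 223 CPM in A549 and at 290.2 and 317 CPM in TD. Both TD libraries lay above both parental libraries, by a modest factor. The change was 1.45-fold on mean CPM, a log2 ratio of 0.53 (SE 0.10, edgeR adjusted p = 0.0131), and it was not called against a threshold of 1.5-fold (adjusted p = 0.904).

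MST1R (ENSG00000164078.8), which encodes RON, was at 48.0 and 44.8 CPM in A549 and at 0.758 and 0.566 CPM in TD. The count fell from 1335 and 1329 to 22 and 23. This was a 70.1-fold lower mean, a log2 ratio of -6.15 (SE 0.15, edgeR adjusted p = 4.12e-05), and the largest fitted fall of the 10 members. An antisense gene across MST1R, AC105935.1, also had fewer counts, 27 and 27 in A549 against 0 and 3 in TD, and its reads cannot be told apart from those of MST1R without the strand setting.

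HGF (ENSG00000019991.11), the MET ligand, had 21 and 26 counts in A549 and 0 and 1 in TD. At 0.754 and 0.876 CPM its parental level was already low. The ratio of counts was 57.0-fold, with a 95% exact counting interval of 9.74 to 2297 (edgeR adjusted p = 0.00536). MET RNA was thus abundant in both states, with HGF RNA low in A549 and near 0 in TD. MST1, the RON ligand, was at 2.26 and 1.35 CPM in the parental libraries against 0.999 and 0.885 CPM in TD, and missed the threshold (log2 ratio -0.94, SE 0.35, edgeR adjusted p = 0.0927), though it was with pseudogenes left out (0.0122) and without either TD library (0.00273 and 0.0233). Its near copies MST1P2 and MST1L, with 15 to 37 and 3 to 8 counts per library, make these values uncertain.

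The MST1R promoter window is shown because this gene had the largest fitted fall and because the window holds CACCTG, in capitals on the other strand, ending 148 bases before the start. The MET window of the same length held no match. A match is a string of letters, and binding was not measured.
MST1R, chr3:49903874-49904123, minus strand: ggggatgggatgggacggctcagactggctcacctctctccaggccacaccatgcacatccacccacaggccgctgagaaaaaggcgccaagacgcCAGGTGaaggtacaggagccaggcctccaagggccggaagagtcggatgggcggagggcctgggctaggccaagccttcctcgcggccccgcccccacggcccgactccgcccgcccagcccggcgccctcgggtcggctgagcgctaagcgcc

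Per kilobase of annotated exon (RPKM, with exon lengths from GENCODE 29), MET made up 75.3% and 78.8% of the summed MET and MST1R level in A549 and 99.7% and 99.8% in TD. The sum itself was 38.6 ± 2.29 RPKM in A549 and 43.2 ± 2.63 RPKM in TD (SD, n = 2), so the shares changed far more than the sum. Each length joins all annotated exons of a gene, also those that its transcripts in these cells may lack. All shares, orders and ranks per length depend on these lengths. PLXNB1, a semaphorin receptor that associates with MET and MST1R, fell from 128 and 104 CPM to 13.7 and 13.9 CPM (log2 ratio -3.07, SE 0.13, edgeR adjusted p = 0.000121). CD44, whose variant forms act as MET co-receptors, rose from 215 and 211 CPM to 590.5 and 646 CPM (log2 ratio 1.54, SE 0.09, edgeR adjusted p = 0.0003). Counts per gene do not separate CD44 variants.

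Among 10 tested genes of ligand processing and receptor shedding, 4 were called higher and 5 lower. The share was 90.0%, against 43.0% of all genes and 50.6% of protein-coding genes. Their median log2 ratio was -0.34, against -0.04 over all tested genes. The inhibitors of HGF-cutting proteases fell: SPINT1 had 50 and 43 counts in A549 and 0 in TD, at least 37.6-fold lower with 3 counts over both TD libraries in place of 0 (edgeR adjusted p = 0.00223), and SPINT2 went from 399 ± 33.3 to 136 ± 13.0 CPM (log2 ratio -1.55, edgeR adjusted p = 0.000615). The SPINT1 call depended on A549 replicate 1 (adjusted p = 0.0536 when left out). ST14, the protease matriptase that cuts HGF, also fell, from 24 and 13 counts to 1 and 5, while HGFAC, HPN and KLKB1, other proteases of this step, had too few counts to be tested. PLAU, the urokinase protease, rose from 75.6 ± 2.38 to 258 ± 7.65 CPM, and FURIN, which cuts the MET precursor, from 38.2 ± 0.887 to 256 ± 38.6 CPM (log2 ratios 1.77 and 2.75, edgeR adjusted p = 0.000131 and 0.000168).

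The TAM receptors also went in different directions. AXL (ENSG00000167601.7) was at 83.2 and 75.9 CPM in A549 and at 39.5 and 46.8 CPM in TD. Both TD libraries were lower than both parental ones, a log2 ratio of -0.88 (SE 0.11, edgeR adjusted p = 0.00371). The 16 alternative settings kept the call, with log2 ratios from -1.01 to -0.75.

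TYRO3 (ENSG00000092445.7) was at 11.1 and 12.3 CPM in A549 and at 27.9 and 29.8 CPM in TD. It rose 2.47-fold on mean CPM, a log2 ratio of 1.30 (SE 0.10, edgeR adjusted p = 0.000682). Its near copy TYRO3P had 2 to 5 counts per library.

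MERTK (ENSG00000153208.12) was at 4.38 and 3.67 CPM in A549 and at 1.14 and 1.13 CPM in TD. The mean was 3.55-fold lower in TD, a log2 ratio of -1.82 (SE 0.22, edgeR adjusted p = 0.0031). MERTK, a receptor best known from macrophages and their uptake of dying cells, stood at 33 and 46 counts in TD. Leukocyte markers were mixed. PTPRC, the pan-leukocyte marker, had at most 4 counts in any library, while CD68 had 41 to 61 and ITGAM 55 to 72. CSF1R rose from 9 and 1 counts to 122 and 211, and CD14 fell from 23 and 23 to 10 and 7. Their relation to the MERTK level was not tested. AC104651.1, a pseudogene on the strand opposite MERTK, had 1 to 14 counts per library.

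GAS6 (ENSG00000183087.10), the ligand that activates all 3 TAM receptors, was at 8.91 and 8.06 CPM in A549 and at 18.4 and 19.3 CPM in TD. It rose 2.22-fold on mean CPM, a log2 ratio of 1.15 (SE 0.10, edgeR adjusted p = 0.0012). PROS1, which encodes protein S, the ligand of TYRO3 and MERTK, moved the other way, from 87.2 and 90.4 CPM to 34.2 and 32.7 CPM (log2 ratio -1.41, SE 0.07, edgeR adjusted p = 0.000228). GAS6-AS1, on the strand opposite GAS6, had 17 to 27 counts per library and was not called (log2 ratio 0.09, SE 0.37, edgeR adjusted p = 0.868), and here too reads of the pair cannot be told apart. LGALS3, a galectin described as a MERTK ligand, fell from 60.1 and 63.6 CPM to 27.2 and 31.3 CPM (log2 ratio -1.08, SE 0.10, edgeR adjusted p = 0.00127). TUB, described as another, was at 37.5 and 31.4 CPM in A549 and 39.8 and 36.1 CPM in TD, with overlapping groups (log2 ratio 0.14, SE 0.12, edgeR adjusted p = 0.397).

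Windows of an AXL start and of the GAS6 start are shown beside these values because both hold CACCTG, in capitals on the other strand where written CAGGTG, although AXL fell and GAS6 rose. The match ends 100 bases before the first AXL start and 238 bases before the GAS6 start. The windows of the second AXL start, of both TYRO3 starts and of MERTK held none. With MST1R and the second RET start, the 4 members that hold these letters comprise 2 that fell and 2 that rose.
AXL, first of 2 starts, chr19:41218973-41219222, plus strand: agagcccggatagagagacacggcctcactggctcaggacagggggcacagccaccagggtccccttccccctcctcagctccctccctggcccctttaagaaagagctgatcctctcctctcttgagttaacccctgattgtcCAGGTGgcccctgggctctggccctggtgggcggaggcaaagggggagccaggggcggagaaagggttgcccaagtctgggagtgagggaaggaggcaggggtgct
GAS6, chr13:113864077-113864326, minus strand: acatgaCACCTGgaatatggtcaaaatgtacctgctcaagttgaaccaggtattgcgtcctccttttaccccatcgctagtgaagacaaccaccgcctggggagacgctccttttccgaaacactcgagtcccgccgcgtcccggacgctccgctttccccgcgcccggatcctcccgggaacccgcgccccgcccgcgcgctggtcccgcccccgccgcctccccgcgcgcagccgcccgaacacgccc

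AXL was the main TAM receptor RNA in both states, with a smaller part in TD. Per kilobase of exon it made up 89.3% and 88.5% of the summed level of AXL, TYRO3 and MERTK in A549 and 73.3% and 75.4% in TD. TYRO3 made up 5.59% and 6.76% in A549 and 24.4% and 22.6% in TD, and MERTK 5.16% and 4.70% in A549 and 2.32% and 2.00% in TD. The joined exon lengths were 5154 bases for AXL, 10945 for TYRO3 and 4700 for MERTK. Without division by length, mean AXL and TYRO3 levels were 79.5 and 11.7 CPM in A549 and 43.1 and 28.8 CPM in TD. The summed level of the 3 receptors was 17.4 ± 1.03 RPKM in A549 and 11.2 ± 1.13 RPKM in TD (SD, n = 2). On the ligand side, GAS6 made up 8.48% and 7.48% of the summed GAS6 and PROS1 level in A549 and 32.8% and 34.9% in TD, while that sum went from 17.7 ± 0.311 to 9.27 ± 0.081 RPKM. None of these shares overlapped between the groups, and no test was run on them. By comparison, the CPM of 74% of tested genes did not overlap between the groups. Shares within a family add up to the whole, so they are not separate observations.

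**Figure D2:**
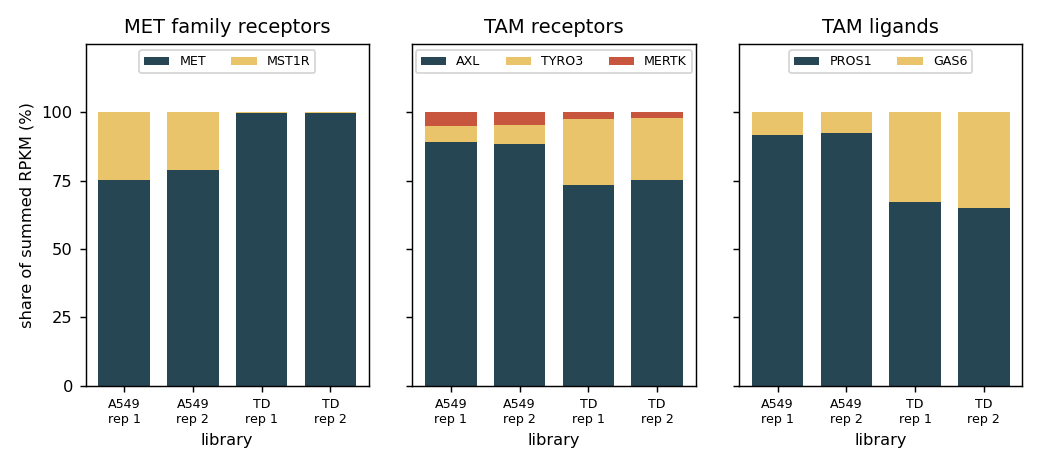
Share of each gene in the summed RPKM of its group (vertical axis, in percent) in each of the 4 libraries, for MET family receptors, TAM receptors and TAM ligands. MST1R shrinks to under 1% in TD, TYRO3 grows to 22.6% to 24.4% of TAM receptors, and GAS6 to 32.8% to 34.9% of the 2 ligands.

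GGCX, the carboxylase that both TAM ligands need, fell from 66.4 ± 0.216 to 36.8 ± 2.10 CPM (log2 ratio -0.85, edgeR adjusted p = 0.0013). VKORC1L1, an enzyme that recycles vitamin K, rose from 85.2 ± 1.00 to 119 ± 3.34 CPM (log2 ratio 0.48, edgeR adjusted p = 0.00584). ADAM10 and ADAM17, the proteases that shed AXL and MERTK from the surface, were called in opposite directions, ADAM10 from 195 to 244 CPM and ADAM17 from 79.5 to 49.8 CPM (edgeR adjusted p = 0.0252 and 0.00234).

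**Figure D3:**
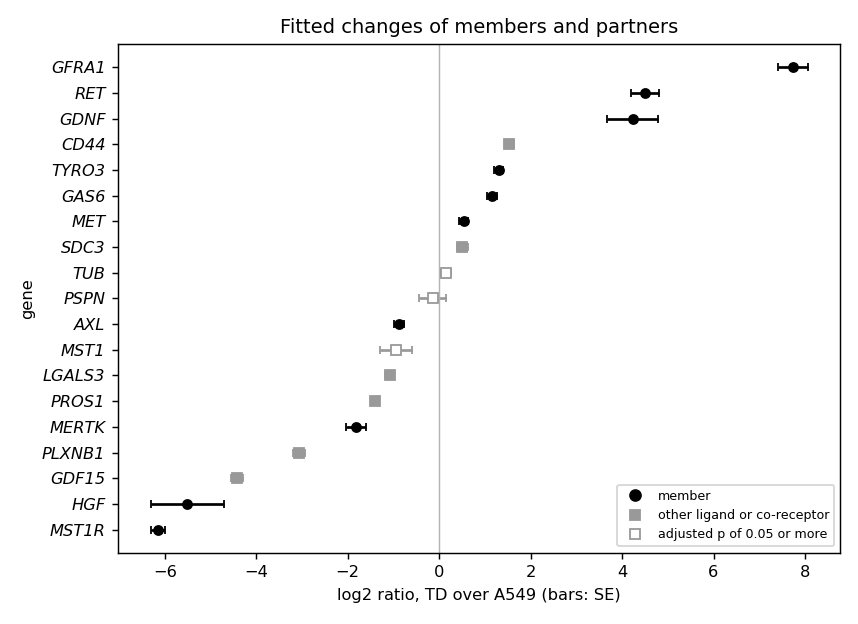
Fitted log2 ratio of TD over A549 (horizontal axis, bars show SE) for the 10 members (black circles) and the 9 tested partners (grey squares), with open symbols where the adjusted p was 0.05 or more. GFRA1, RET and GDNF lie at the upper end and MST1R and HGF at the lower end; for GDNF and HGF the fitted value rests on 2 counts or fewer in the lower group.

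Compared per length, the order of the members in A549 was MET at 29.7 ± 2.72 RPKM, AXL at 15.4 ± 1.00, MST1R at 8.83 ± 0.426, GAS6 at 1.41 ± 0.101, TYRO3 at 1.07 ± 0.0799 and MERTK at 0.857 ± 0.107 RPKM. RET at 0.0838 and HGF at 0.0831 RPKM overlapped each other, as did GDNF at 0.00815 and GFRA1 at 0.00708 RPKM. In TD, MET at 43.1 ± 2.65 RPKM and AXL at 8.37 ± 1.00 RPKM were still highest. GAS6 at 3.14 ± 0.113, TYRO3 at 2.64 ± 0.124, RET at 1.91 ± 0.0687 and GFRA1 at 1.61 ± 0.188 RPKM followed, then MERTK at 0.241, GDNF at 0.169, MST1R at 0.126 and HGF at 0.00125 RPKM. No neighbours in the TD order overlapped between libraries. MST1R had gone from the third place to the ninth, and RET and GFRA1 had moved above MERTK.

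Among 58 receptor tyrosine kinases ranked by RPKM within each library, MET was the third in both A549 libraries and the second in both TD libraries. AXL held rank 6 in both A549 libraries and ranks 9 and 8 in the TD libraries. RET stood at ranks 35 and 38 in A549 and at rank 19 in both TD libraries, so even after its rise it was a receptor of middling level, at 0.710% of the summed RPKM of these receptors against 16.0% for MET. MST1R went from rank 9 in both A549 libraries to ranks 30 and 32. TYRO3 went from rank 19 to rank 16 in both, and MERTK from ranks 20 and 21 to ranks 27 and 28.

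**Figure D4:**
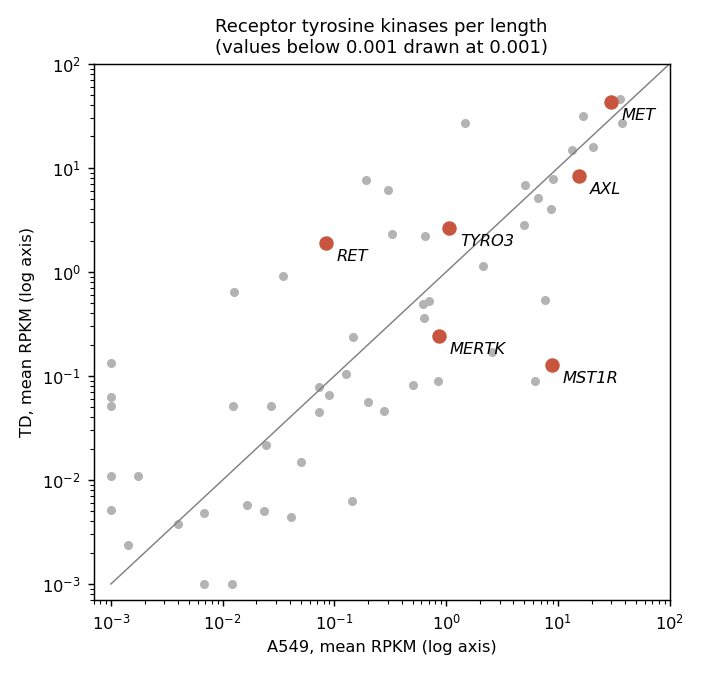
Mean RPKM of 58 receptor tyrosine kinases in A549 (horizontal) and TD (vertical), both on log axes, with the 6 members in red and the line of equal level. RET and TYRO3 lie above the line, MERTK and MST1R well below it, and MET and AXL near the upper end on either side of it.

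Of the 52 other receptor tyrosine kinases, 35 could be tested, and 10 were called higher and 13 lower, with a median log2 ratio of -0.36. The called share was 65.7%, against 43.0% of all genes and 50.6% of protein-coding genes. All 6 member receptors were called, 3 in each direction. ROS1, a kinase known from lung cancer fusions, rose from 1.49 ± 0.0309 to 60.5 ± 2.74 CPM (log2 ratio 5.33, edgeR adjusted p = 3.08e-05). EPHB1, an ephrin receptor, rose from 4 and 1 counts to 117 and 195, and CSF1R, the macrophage growth factor receptor, from 9 and 1 counts to 122 and 211 (edgeR adjusted p = 0.00151 and 0.00798). With so few parental counts, the log2 ratio of EPHB1 was 5.60 with all libraries, 6.84 without A549 replicate 1 and 4.88 without A549 replicate 2, and that of CSF1R 4.71, 6.93 and 3.82. ERBB3, a catalytically weak partner within the EGF receptor family, fell from 55.8 ± 0.699 to 0.802 ± 0.23 CPM with a log2 ratio of -6.15, the same to 2 decimals as that of MST1R. LMTK3 fell as well, from 14.6 ± 0.658 to 0.969 ± 0.055 CPM, and so did the fibroblast growth factor receptor FGFR3, from 37.2 ± 5.78 to 2.60 ± 0.116 CPM (edgeR adjusted p = 8.62e-05 and 0.000103).

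Of 21 tested adaptors and regulators that these receptors share, 10 were called higher and 6 lower, with a median log2 ratio of 0.32. That was 76.2%, against 43.0% of all genes and 50.6% of protein-coding genes. PTPRF, a receptor phosphatase, rose from 109 ± 8.74 to 694 ± 61.6 CPM, CBLB, a ubiquitin ligase of activated receptors, by a log2 ratio of 1.36 (SE 0.11), and SOCS3, a feedback inhibitor of cytokine signalling, from 8.01 ± 0.967 to 18.8 ± 1.67 CPM (edgeR adjusted p = 0.000127, 0.000751 and 0.00221). DOK4, an adaptor of RET, fell from 162 ± 2.90 to 44.0 ± 3.51 CPM, the kinase SRC from 315 ± 13.2 to 106 ± 8.02 CPM, and GAB2, a docking protein, from 25.1 ± 1.13 to 8.86 ± 0.0862 CPM (edgeR adjusted p = 0.000163, 0.000322 and 0.000324). GAB1, the main docking protein of MET, had a log2 ratio of 0.03 and the adaptor GRB2 of 0.14, and neither was called (edgeR adjusted p = 0.902 and 0.185).

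Genes that ERK signalling is known to induce went both ways. Of 18 tested, 5 were called higher and 7 lower, with a median log2 ratio of -0.07. Their called share was 66.7%, against 43.0% of all genes and 50.6% of protein-coding genes. PHLDA1 rose from 37.4 ± 0.0381 to 114 ± 7.39 CPM, PLAUR, the urokinase receptor, by a log2 ratio of 0.74 (SE 0.10), and CCND1, cyclin D1, from 260.2 ± 14.7 to 407 ± 29.4 CPM (edgeR adjusted p = 0.000207, 0.00501 and 0.00583). FOS fell from 20.4 ± 0.311 to 0.307 ± 0.191 CPM, SPRY1, a feedback inhibitor of receptor kinases, from 2.57 ± 0.0315 to 0.15 ± 0.066 CPM, and DUSP5, a phosphatase of ERK, from 71.4 ± 1.06 to 6.91 ± 0.0717 CPM (edgeR adjusted p = 0.0003, 0.0015 and 3.68e-05). Without TD replicate 2 the log2 ratio of FOS was -6.85, against -5.96 with all libraries. PLAUR and CCND1, like VKORC1L1 and SDC3 among the genes above, were not called against a 1.5-fold change (adjusted p = 0.125 and 0.347 for PLAUR and CCND1). Receptor protein, phosphorylation and ligand secretion were not measured.

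**Figure D5:**
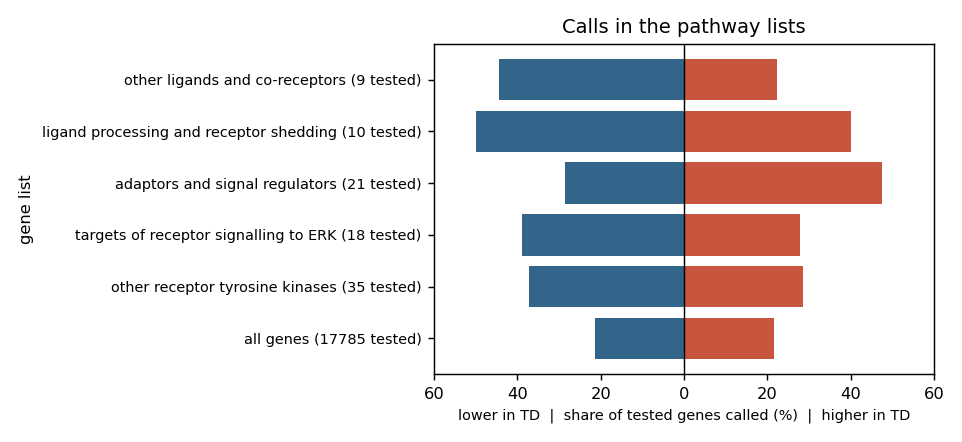
Share of tested genes called higher (red, to the right) or lower (blue, to the left) in TD, in percent, for 5 gene lists around the receptors and for all 17785 tested genes. Each list has both directions and a larger called share than the 43.0% of all genes. Among tested protein-coding genes, the type of the listed genes, the share was 50.6% (not drawn).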

How the data were processed

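Reads were counted per gene in 2 A549 and 2 TD libraries from a strand-specific mRNA kit, per the labels. The authors deposited unnormalized counts for each Ensembl gene; FastQC 0.11.8, STAR 2.7.1a, HTSeq 0.11.2 and build hg19 are named, per the submitters' processing notes. For the annotation release and for strand in counting, the setting is not given in the sources used here. Reads that HTSeq gave to no gene were left out of totals; those outside genes made up 6.12% to 7.79% of all counted reads, those in several genes 2.34% to 2.56% and those with several alignments 8.08% to 9.22%. Of 57820 identifiers, 52338 were paired with symbols from GENCODE 29, which is on GRCh38 and gave names, types and exon lengths only.

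TD was compared with A549 by the quasi-likelihood test of edgeR 4.0.16 (R 4.3.3) with TMM scaling, the default filter (minimum count 10) and Benjamini-Hochberg adjustment over all tested genes; genes with an adjusted p below 0.05 were called. The code was tested on simulated data. The 16 alternatives covered other scalings, DESeq2 1.42.0, limma-voom (limma 3.58.1), filters, dispersion, depth, pseudogenes, a replicate block, a 1.5-fold threshold and each library left out. Named genes were all members, all listed partners and near copies, and, from 4 other lists, up to 3 called genes in each direction with the largest change and at least 1 CPM; further genes were named with their values known. The members and lists were chosen with earlier results of these data known. Promoter sequences come from RefSeq (GRCh38.p14), where all 10 members matched.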

Additional observations from a re-analysis of the deposited data

How the results depend on the processing

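Under the alternatives, 151 values of the members kept their direction and their side of the threshold, and 6 kept their direction without a call. Those 6 were GDNF and HGF without each A549 library, MET without A549 replicate 1 and MET against a 1.5-fold change, where its log2 ratio of 0.53 had an adjusted p of 0.904. With each library left out in turn, log2 ratios ranged from 0.40 to 0.61 for MET, from 4.17 to 4.28 for GDNF and from -7.57 (without TD replicate 2) to -4.84 (without TD replicate 1) for HGF. With the filter of 5 CPM in 2 libraries, 2 members were called lower, since HGF and MERTK, like GDNF, then fell under the filter. Over all genes, 7642 were called, against 3850 with the 1.5-fold threshold and 4350 to 11469 with 1 library left out. Without an A549 library the spread comes from the TD pair alone, and the biological coefficient of variation was 34.0% to 34.1%. Without a TD library the spread comes from the A549 pair alone, and the coefficient was 7.08%. With all libraries the coefficient was 20.1%, and 7.90% without pseudogenes. Over all tested genes, pseudogenes included, the TD pair thus gave the larger part of this common coefficient. That need not hold for each member.

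Among the other named genes, uncalled values changed sign with a library left out: TUB reached a log2 ratio of -0.0039 without A549 replicate 2 (range to 0.24), PSPN 0.10 without TD replicate 1 (from -0.42), and GAS6-AS1 -0.17 without A549 replicate 2 and -0.057 without TD replicate 1 (range to 0.34). The labels' replicate numbers are not said to pair libraries, and deviations of same-numbered libraries correlated at r = -0.09 across 17785 genes. With the replicate number as a block, 5811 genes and the same counts of 6 higher and 4 lower members were called. SDC3 (0.51, edgeR adjusted p = 0.0728) lost its call, as did no other gene that the naming rule covers. Results under the alternatives were not collected for genes named outside that rule, such as ADAM10, ADAM17, ST14, GAB1 and GRB2. Counts of HGF, GDNF and the scarce partners limit what can be read from them.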
